A study of Mus musculus with 12 samples.

Results

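The GADD45 family (Gadd45a, Gadd45b and Gadd45g) and 7 genes known as transcriptional targets of p53 (Mdm2, Trp53inp1, Btg2, Ccng1, Sesn1, Sesn2 and Phlda3) were followed in primary mouse hepatocytes (HPC) over the first 4 h with transforming growth factor beta 1 (TGF-β1). The 10 genes were chosen by name, from their known roles, but with earlier results of these data known. Each was measured by 1 probe set, so that they made up 10 of the 21789 probe sets with a single gene symbol on the array. The hepatocytes were isolated with collagenase from male C57BL/6 mice and kept on collagen in HepatoZYME-SFM, a serum-free medium, which was exchanged 1 h before stimulation. Recombinant human TGF-β1 was added at 1 ng/ml, and RNA was taken for hybridization after 20 min, 2 h and 4 h, while the control cells were untreated. There were 4 groups of 3 arrays, numbered as replicates 1 to 3 in every group, and 12 arrays in all. No allele or other agent distinguished the groups. The control was measured at 1 time only, so that time in fresh medium and time with TGF-β1 cannot be told apart. The animals behind each replicate, and any pooling of them, are not given in the sources used here.

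GADD45 proteins are small acidic nuclear proteins that are made when cells are stressed. They bind the kinase MEKK4, which activates p38 and JNK, and they also bind PCNA and the CDK1 kinase, linking stress to growth arrest, repair and cell death. p53 is a transcription factor that is held low by the ubiquitin ligase Mdm2 and released when DNA is damaged. Its targets include Mdm2 itself, which closes a feedback loop, and genes that slow proliferation or growth signaling. In hepatocytes TGF-β1 acts through SMAD transcription factors and is known for growth arrest and apoptosis, and Gadd45b is described as a SMAD target that connects the ligand to p38.

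None of the 10 genes passed the test in any comparison (limma, with a call at an adjusted p under 0.05 over all probe sets). At 4 h the estimated log2 fold changes ran from -0.37 for Sesn1 to 0.30 for Phlda3. At 4 h 1000 probe sets were called, or 4.59% of those tested, of which 343 (1.57%) were higher and 657 (3.02%) were lower than in the control. Before adjustment, 5 of the 10 genes had a p under 0.05 at 4 h, and all of them had lower values than the control. These were Gadd45a, Mdm2, Trp53inp1, Btg2 and Sesn1. Among all probe sets 17.0% had such a p, and 9.49% had it with a lower value. The count depended on the replicates and on the replicate term. It was 6 without replicate 1, of which 3 were lower (Mdm2, Trp53inp1 and Sesn1) and 3 higher (Gadd45b, Sesn2 and Phlda3), and 4 and 1 without replicates 2 and 3, all lower. With the replicate number as a random effect it was 3, and without it 1, again all lower. The share of all probe sets with such a p was not worked out for these refits, so their counts have no background.

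Promoter sequences are shown for the GADD45 genes, whose levels moved together across the arrays, and for Btg2, which had the lowest time course p-value of the 10 genes. Each is the 250 bases before the transcription start in RefSeq (GRCm38.p6), printed on the strand of the gene. Of the 10 genes 9 had an entry, and Trp53inp1 had none. Capitals mark matches on either strand to CACGTG (the E-box), CCAAT (the CCAAT box), CAGAC (a SMAD box) and TGACGTCA (the cAMP response element). The windows lie at chr6:67037408-67037657 on the minus strand for Gadd45a, chr10:80929841-80930090 on the plus strand for Gadd45b, chr13:51846425-51846674 on the plus strand for Gadd45g, and chr1:134079156-134079405 on the minus strand for Btg2.
Gadd45a: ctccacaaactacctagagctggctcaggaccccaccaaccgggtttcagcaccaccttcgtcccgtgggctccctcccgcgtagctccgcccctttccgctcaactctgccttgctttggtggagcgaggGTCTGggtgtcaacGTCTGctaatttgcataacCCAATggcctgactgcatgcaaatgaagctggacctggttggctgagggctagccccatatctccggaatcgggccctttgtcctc
Gadd45b: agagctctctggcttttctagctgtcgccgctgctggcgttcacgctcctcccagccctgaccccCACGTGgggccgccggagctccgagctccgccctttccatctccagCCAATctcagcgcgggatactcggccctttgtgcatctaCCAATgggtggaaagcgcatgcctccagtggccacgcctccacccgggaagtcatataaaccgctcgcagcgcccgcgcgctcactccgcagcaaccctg
Gadd45g: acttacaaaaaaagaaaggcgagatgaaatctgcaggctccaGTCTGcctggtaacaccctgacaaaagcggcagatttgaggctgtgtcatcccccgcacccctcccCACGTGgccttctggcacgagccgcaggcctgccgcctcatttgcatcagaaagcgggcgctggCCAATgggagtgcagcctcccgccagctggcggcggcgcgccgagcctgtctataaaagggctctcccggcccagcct
Btg2: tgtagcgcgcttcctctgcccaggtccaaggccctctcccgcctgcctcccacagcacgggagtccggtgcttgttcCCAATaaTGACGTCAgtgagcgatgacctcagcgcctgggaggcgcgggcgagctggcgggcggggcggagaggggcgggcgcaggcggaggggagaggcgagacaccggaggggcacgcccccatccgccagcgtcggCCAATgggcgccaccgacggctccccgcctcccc

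CACGTG was found in Gadd45b, starting 185 bases before the start of transcription, and in Gadd45g at 142 bases. It was present in 6.02% of all 32851 promoter windows of this length. CCAAT was found in all of the 4 windows shown, at 86 bases in Gadd45a, at 139 and 100 bases in Gadd45b, at 78 bases in Gadd45g and at 173 and 34 bases in Btg2, and in 33.8% of all windows. CAGAC was found at 119 and 105 bases in Gadd45a and at 208 bases in Gadd45g, against 42.2% of all windows. TGACGTCA was found in Btg2 alone among the 10 windows of the 9 genes, at 166 bases, against 1.55% of all windows. The full p53 response element occurred in none of the 10 windows and in 0.0639% of all windows. It is so rare at this length that its absence cannot set these genes apart from others. Sequence outside the windows was not searched. None of the 4 marked motifs overlapped another in the windows shown. The motifs were picked with the sequences in view, and a match describes the letters only.

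Levels are given below as log2 signal for replicates 1, 2 and 3 in that order, and a difference of 1 on this scale is a 2-fold change. Signals of different probe sets were not set against each other. All 10 genes had a mean log2 signal above the median of the tested probe sets (7.23). The values are from whole cultures, in which fewer cells of a type and less RNA per cell cannot be told apart.

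Gadd45a, a p53 target that interacts with PCNA and inhibits CDK1, had log2 signals of 11.83, 10.52 and 10.48 in the control, 11.49, 10.28 and 10.09 at 20 min, 11.81, 10.05 and 10.62 at 2 h and 11.17, 10.37 and 10.21 at 4 h. Replicate 1 was the highest of its group at every time, and the groups overlapped throughout. Within replicates, the 4 h array was lower than the control by 0.65, 0.16 and 0.27 on the log2 scale. The estimated change of Gadd45a at 4 h was -0.36 (SE 0.15, 95% interval -0.68 to -0.04), with an unadjusted p of 0.0306 and an adjusted p of 0.226 (limma). In replicates 2 and 3 alone it was -0.21 (SE 0.16, 95% interval -0.56 to 0.14, unadjusted p = 0.204, adjusted p = 0.608 by limma). At 20 min Gadd45a was also lower than the control in 3 of 3 replicates, with a log2 fold change of -0.32 (SE 0.15, adjusted p = 0.584 by limma). At 2 h the estimate was -0.12, with replicates 1 and 2 lower and replicate 3 higher than their controls.

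Gadd45b, the family member described as a SMAD target, had log2 signals of 12.10, 11.15 and 11.07 in the control, 11.70, 11.04 and 10.98 at 20 min, 12.17, 11.04 and 11.66 at 2 h and 11.45, 11.51 and 11.44 at 4 h. The spread between replicates was widest in the control (SD 0.58, n = 3) and narrowest at 4 h (SD 0.04, n = 3), where replicate 1 had come down and replicates 2 and 3 had gone up. The differences at 4 h were -0.65, 0.36 and 0.38 in that order. The estimate for Gadd45b was 0.03 (SE 0.19, 95% interval -0.39 to 0.45, adjusted p = 0.964 by limma). In replicates 2 and 3 alone it was 0.37 (SE 0.15, 95% interval 0.02 to 0.72), with an adjusted p of 0.268 (limma). At 2 h Gadd45b was 0.18 above the control (SE 0.19, adjusted p = 0.9748 by limma), which came mainly from replicate 3, at 0.60. At 20 min all 3 replicates were below their controls, with an estimate of -0.20 (SE 0.19, adjusted p = 0.802 by limma).

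Gadd45g, the third family member, had log2 signals of 10.33, 8.68 and 8.40 in the control, 10.17, 8.32 and 8.35 at 20 min, 10.14, 8.34 and 9.34 at 2 h and 9.41, 8.66 and 8.61 at 4 h. Replicate 1 was again the highest of each group, and replicate 3 stood between the others at 2 h. At 4 h the differences from the control were -0.93, -0.02 and 0.21 in replicates 1 to 3. The estimate for Gadd45g was -0.25 (SE 0.24, 95% interval -0.79 to 0.29, adjusted p = 0.687 by limma), the widest interval among the 10 genes. At 2 h the differences were -0.19, -0.34 and 0.93, so that replicate 3 alone was higher, as it was for Gadd45a.

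After the mean of each replicate number was subtracted, the 3 family members varied together over the 12 arrays. Pearson's r was 0.83 between Gadd45b and Gadd45g, 0.79 between Gadd45a and Gadd45g and 0.72 between Gadd45a and Gadd45b. The points share cultures, arrays and times, so these values are a description.

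**Figure D1:**
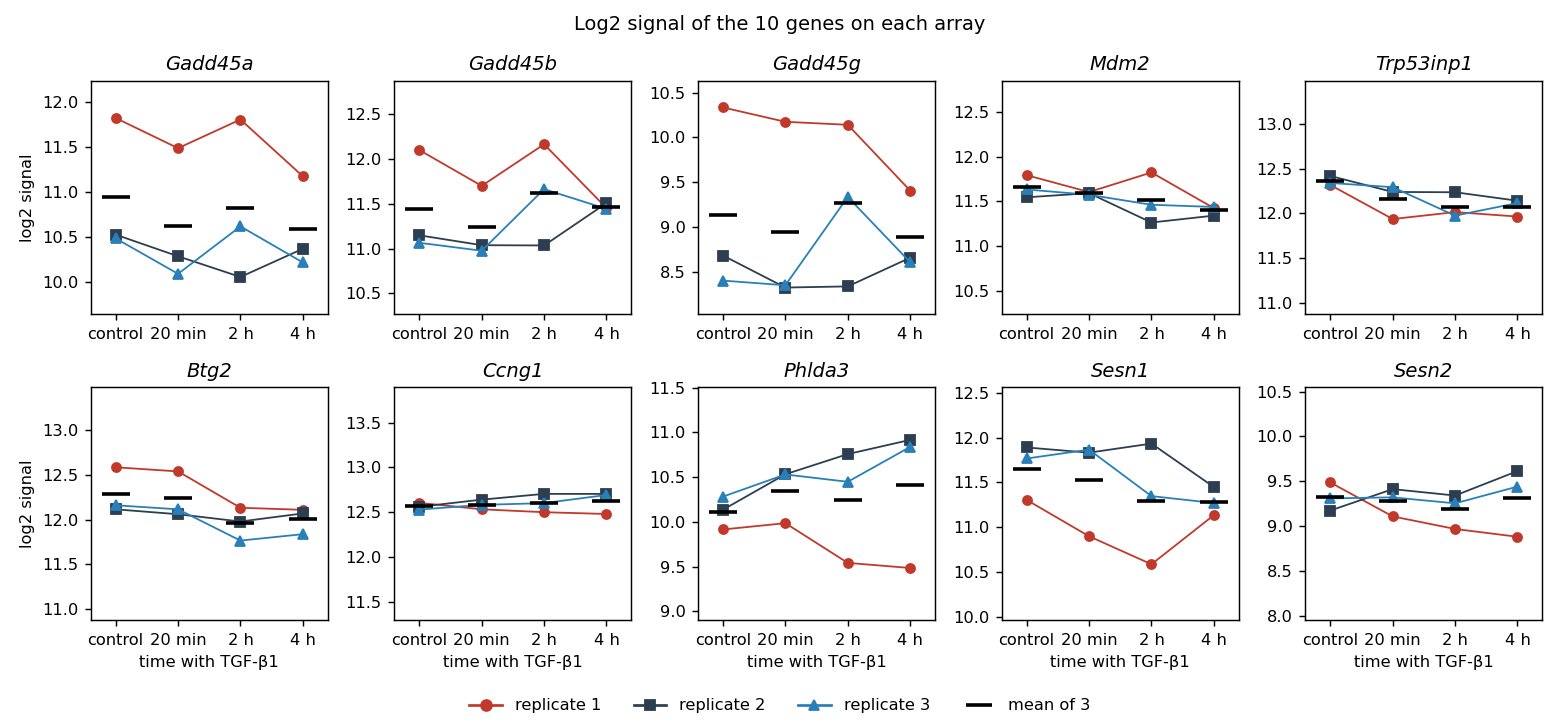
Log2 signal (y axis) of each of the 10 genes against time with TGF-β1 (x axis), with 1 colored line per replicate and a black bar for the mean of the 3 arrays. Every panel spans the same number of log2 units. Replicate 1 lies above replicates 2 and 3 for Gadd45a and Gadd45g and below them for Phlda3 and Sesn1 at every time, and the lines of Phlda3 run apart after the control.

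Mdm2, the ubiquitin ligase that marks p53 for degradation, had log2 signals of 11.79, 11.55 and 11.63 in the control, 11.60, 11.59 and 11.57 at 20 min, 11.82, 11.26 and 11.46 at 2 h and 11.43, 11.34 and 11.44 at 4 h. All arrays at 4 h were below all control arrays. The replicates differed by -0.37, -0.20 and -0.20 at 4 h, and the estimate was -0.26 (SE 0.09, 95% interval -0.45 to -0.06), with an unadjusted p of 0.0164 and an adjusted p of 0.156 (limma). The estimates for Mdm2 at 20 min and 2 h were -0.07 and -0.14, and at both times 1 of 3 replicates was higher than its control.

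Trp53inp1, a stress-induced nuclear protein that binds p53 and promotes its phosphorylation, had log2 signals of 12.32, 12.42 and 12.34 in the control. The values were 11.94, 12.24 and 12.29 at 20 min, 12.01, 12.24 and 11.97 at 2 h and 11.96, 12.14 and 12.11 at 4 h. No array with TGF-β1 reached the lowest control array at any of the 3 times, which share the same 3 control arrays. Trp53inp1 had a log2 fold change of -0.28 at 4 h (SE 0.08, 95% interval -0.45 to -0.11, n = 3), with -0.35, -0.28 and -0.22 in the replicates. The adjusted p of 0.0641 (limma) was the lowest of the 10 genes and missed the threshold. At 2 h Trp53inp1 had an estimate of -0.28 (SE 0.08, unadjusted p = 0.00354, adjusted p = 0.409 by limma), and at 20 min -0.20 (SE 0.08, unadjusted p = 0.0236, adjusted p = 0.518 by limma). At 4 h Trp53inp1 passed under 4 other settings at the same threshold. The adjusted p was 0.0483 among probe sets at or above the median signal, 0.0190 with a trended and robust prior, 0.0352 with array weights and 0.0407 without replicate 1 of the 20 min group (limma). Trp53inp1 did not pass with the replicate number as a random effect (adjusted p = 0.148) or without that term (adjusted p = 0.668, both by limma). It also missed over all 35556 probe sets (adjusted p = 0.141) and in replicates 2 and 3 alone (adjusted p = 0.157, both by limma).

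Btg2, an antiproliferative protein that recruits the CCR4-NOT deadenylase to mRNAs, had log2 signals of 12.58, 12.11 and 12.16 in the control, 12.54, 12.06 and 12.11 at 20 min, 12.13, 11.98 and 11.76 at 2 h and 12.11, 12.07 and 11.84 at 4 h. The 20 min values differed from the control by -0.05 in each replicate, and the values at 2 h and 4 h were lower than the control in 3 of 3 replicates. The 4 h arrays of Btg2 did not overlap with the control, while at 2 h the highest array lay above the lowest control array. Btg2 had a log2 fold change of -0.33 at 2 h (SE 0.09, unadjusted p = 0.0027, adjusted p = 0.395 by limma) and -0.28 at 4 h (SE 0.09, 95% interval -0.47 to -0.09, adjusted p = 0.0971 by limma). From 20 min to 2 h it was -0.28 (SE 0.09, unadjusted p = 0.00747, adjusted p = 0.939 by limma), and from 2 h to 4 h 0.05. Btg2 passed at 4 h with a trended and robust prior (adjusted p = 0.0385) and with array weights (adjusted p = 0.0438, both by limma). The share of all probe sets that passed in these settings is not given. With the replicate number as a random effect its adjusted p was 0.325, and without that term 0.996 (limma).

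Ccng1, cyclin G1, which brings the phosphatase PP2A to Mdm2, had log2 signals of 12.60, 12.56 and 12.53 in the control, 12.53, 12.64 and 12.58 at 20 min, 12.50, 12.70 and 12.60 at 2 h and 12.48, 12.70 and 12.69 at 4 h. Its estimates were 0.02, 0.04 and 0.06 at 20 min, 2 h and 4 h (SE 0.07 each), with an adjusted p of 0.732 at 4 h (limma). Replicate 1 was below its control at the 3 times, and replicates 2 and 3 were above theirs.

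Phlda3, a small pleckstrin homology domain protein that competes with the kinase Akt for membrane lipids, had log2 signals of 9.92, 10.14 and 10.28 in the control, 9.99, 10.53 and 10.53 at 20 min, 9.54, 10.76 and 10.45 at 2 h and 9.49, 10.92 and 10.84 at 4 h. In replicates 2 and 3 the values at 4 h were above every control array, and in replicate 1 the value was below all of them. The differences at 4 h were -0.43, 0.78 and 0.55, and the estimate for Phlda3 was 0.30 (SE 0.19, 95% interval -0.11 to 0.71, adjusted p = 0.467 by limma). In replicates 2 and 3 alone, Phlda3 had a log2 fold change of 0.67 at 4 h (SE 0.10, 95% interval 0.44 to 0.89, adjusted p = 0.00783 by limma), and it was the only one of the 10 genes to pass there. Without replicate 2 the estimate for Phlda3 was 0.0624 (SE 0.20, adjusted p = 0.919) and without replicate 3 it was 0.17 (SE 0.26, adjusted p = 0.877, both by limma). Of all probe sets 4.52% passed in these 2 replicates, and 2.26% passed with a higher value. Its estimates in the same 2 replicates were 0.32 at 20 min (adjusted p = 0.691) and 0.39 at 2 h (adjusted p = 0.248, both by limma). With array weights over all 3 replicates, Phlda3 also passed at 4 h (adjusted p = 0.0457 by limma). The share of all probe sets that passed in this setting is not given.

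**Figure D2:**
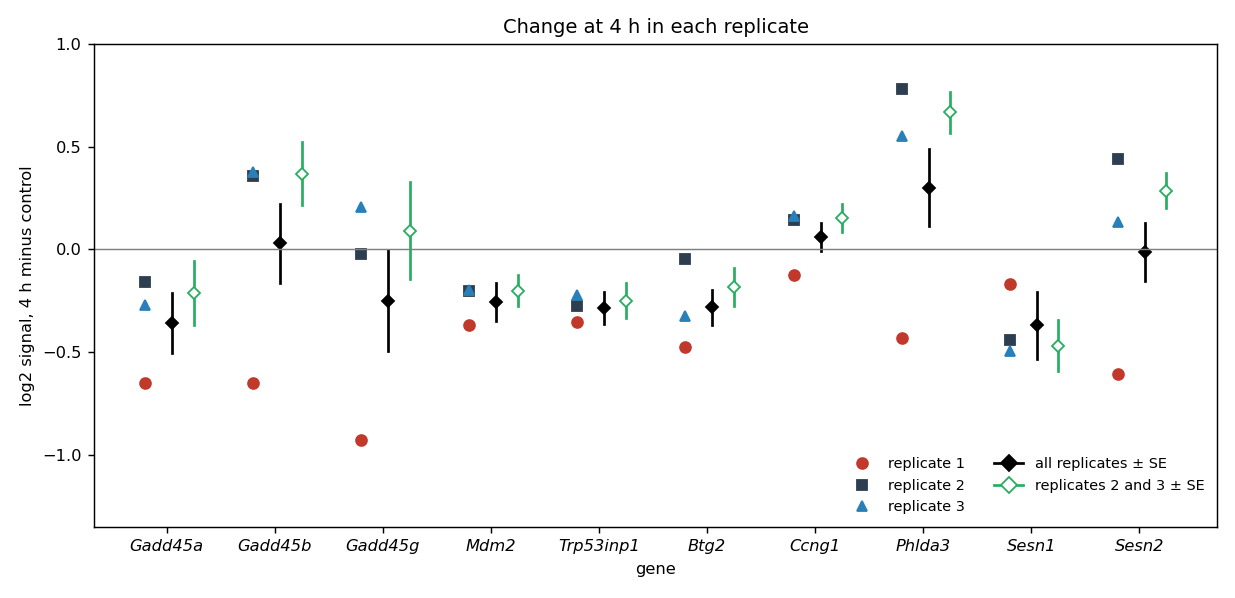
Difference in log2 signal between the 4 h and the control array of the same replicate number (y axis) for each of the 10 genes (x axis). Colored symbols are single replicates, black diamonds the estimate over 3 replicates and open diamonds that over replicates 2 and 3, both with 1 SE. For Gadd45b, Ccng1, Phlda3 and Sesn2 replicate 1 lies below 0 and the other replicates above it, and for Phlda3 the values are -0.43, 0.78 and 0.55.

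Sestrins restrain the growth kinase complex mTORC1 and protect against oxidants. Sesn1 had log2 signals of 11.30, 11.89 and 11.77 in the control, 10.90, 11.83 and 11.86 at 20 min, 10.58, 11.93 and 11.35 at 2 h and 11.13, 11.45 and 11.27 at 4 h. Every replicate was lower at 4 h than its control, by 0.17, 0.44 and 0.50 on the log2 scale, although the groups overlapped because the control of replicate 1 was low. The estimate for Sesn1 was -0.37 (SE 0.16, 95% interval -0.72 to -0.01, unadjusted p = 0.0426, adjusted p = 0.269 by limma). At 2 h Sesn1 had almost the same estimate, -0.36 (SE 0.16, adjusted p = 0.788 by limma), but with -0.72, 0.04 and -0.42 in the replicates.

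Sesn2, which binds leucine and is also known as an ATF4 target, had log2 signals of 9.49, 9.17 and 9.31 in the control, 9.11, 9.41 and 9.32 at 20 min, 8.97, 9.34 and 9.25 at 2 h and 8.88, 9.61 and 9.44 at 4 h. Replicate 1 was the highest control array and the lowest array at each later time. The differences at 4 h were -0.61, 0.44 and 0.13, and the estimate for Sesn2 was -0.01 (SE 0.14, 95% interval -0.32 to 0.30, adjusted p = 0.983 by limma). Sesn1 and Sesn2 had little in common over the 12 arrays (Pearson's r of 0.03 after subtraction of replicate means).

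Across the 10 genes the median log2 fold change was -0.25 at 4 h, -0.13 at 2 h and -0.09 at 20 min, beside 0.02, 0.01 and 0.00 over all probe sets. The 3 comparisons share the control arrays. At 4 h 7 of the 10 genes had an estimate below 0 and 3 above it, while 57% of all probe sets were above 0. In replicates 2 and 3 alone the split was 5 to 5 and the median was -0.0469 at 4 h, -0.0567 at 2 h and -0.0284 at 20 min. Without replicate 2 or 3 the median at 4 h was -0.28 and -0.27, with 8 genes below 0 in both cases. The 10 genes ranged from -0.37 to 0.30. With the replicate number as a block, their 95% intervals at the 3 times lay between -0.79 and 0.71, so that none included a 2-fold change. With it as a random effect the SE at 4 h was 0.39 for Gadd45g and 0.30 for Gadd45a, and without it 0.65 and 0.54. The intervals of these genes are wider in those fits, so the 2-fold limit is stated only for the fit with the block. At the threshold of the study's methods, an adjusted p under 0.01 with at least a 2-fold change, 21 probe sets were called at 4 h (0.0964%), and none of the 10 genes was among them.

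Values were lower than the control in 3 of 3 replicates for 5 of the 10 genes at 4 h (Gadd45a, Mdm2, Trp53inp1, Btg2 and Sesn1), beside 17.4% of all probe sets. This held for 2 of the 10 genes at 2 h (Trp53inp1 and Btg2), beside 11.4% of all probe sets. At 20 min it held for 5 (the GADD45 family, Trp53inp1 and Btg2), beside 17.1%. Phlda3 was the only one of the 10 genes higher in 3 of 3 replicates at any time, at 20 min, with an estimate of 0.24 (SE 0.19, adjusted p = 0.747 by limma). At 4 h 3 genes (Mdm2, Trp53inp1 and Btg2) did not overlap with the control and were lower, as were 5.58% of all probe sets. Trp53inp1 was the only one of the 10 without overlap at 2 h, beside 2.55% of all probe sets lower in this way, and at 20 min, beside 4.91%.

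**Figure D3:**
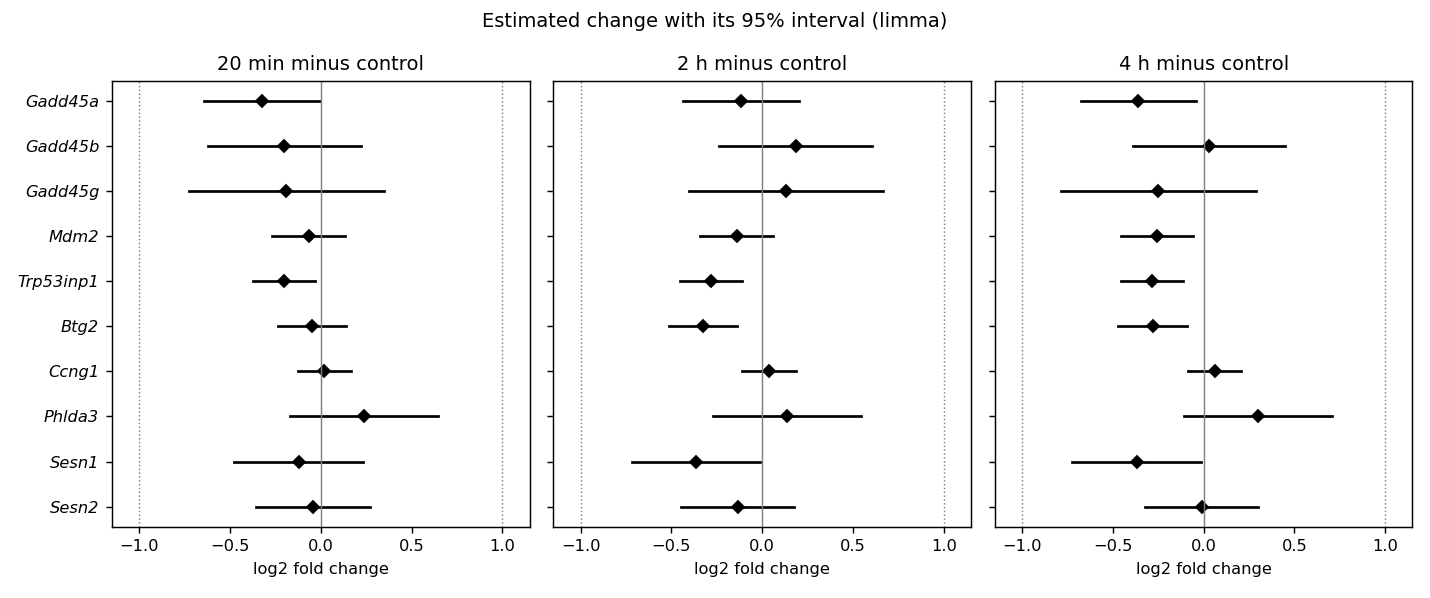
Estimated log2 fold change against the control (x axis) of the 10 genes at 20 min, 2 h and 4 h, as diamonds with 95% intervals from limma over 3 replicates. The replicate number was a block in this fit. Dotted lines mark a 2-fold change in either direction. No interval reaches a dotted line, and at 4 h the intervals of Gadd45a, Mdm2, Trp53inp1, Btg2 and Sesn1 lie below 0 before adjustment for the number of probe sets.

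At 2 h none of the 10 genes was called by limma, and neither was any probe set (0%). Trp53inp1, Btg2 and Sesn1 had an unadjusted p under 0.05 and lower values there, beside 6.28% of all probe sets with such a p and 3.96% with a lower value. Without replicate 1 there were 4, and Phlda3 among them was higher. The 20 min comparison likewise had no calls (0%), and Gadd45a and Trp53inp1 had an unadjusted p under 0.05 with lower values, beside 8.46% of all probe sets and 5.87% with a lower value. Without replicate 1 Phlda3 alone had such a p, with a higher value. No share of all probe sets was worked out for the fits without replicate 1 at 2 h and 20 min. Between 2 h and 4 h 17 probe sets were called (0.0780%), none of them among the 10 genes, and no gene of the 10 had an unadjusted p under 0.05 by limma, beside 8.83% of all. Between 20 min and 2 h no probe set was called (0%). Btg2 was then the only one of the 10 genes with an unadjusted p under 0.05, beside 5.11% of all probe sets and 1.77% with a lower value. The F-test over the time course called 305 probe sets (1.40%) and none of the 10 genes. Btg2 (adjusted p = 0.135) and Trp53inp1 (adjusted p = 0.192, both by limma) were the only members of the 10 with an unadjusted p under 0.05 in this test, beside 12.1% of all probe sets. A further contrast between 4 h and 20 min, which leaves out the control and was added after the data were seen, called 135 probe sets (0.620%) and none of the 10 genes. Btg2 had the lowest p there, with a log2 fold change of -0.23 (SE 0.09, unadjusted p = 0.0199, adjusted p = 0.358 by limma), and it was the only one of the 10 with an unadjusted p under 0.05.

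The arrays of replicate 1 stood apart from the rest. The correlation between arrays over all probe sets was 0.990 to 0.994 among the arrays of replicate 1, 0.994 to 0.997 among those of replicates 2 and 3, and 0.978 to 0.988 between these sets. Averaged over the 4 groups, replicate 1 was higher than the mean of the other replicates by 1.43 for Gadd45g, 1.25 for Gadd45a, 0.62 for Gadd45b and 0.33 for Btg2 on the log2 scale. For Phlda3 the difference was -0.82 and for Sesn1 -0.69, and it lay between -0.25 and 0.18 for the other members. For the GADD45 family, Phlda3 and Sesn1 these differences between replicates were larger than any estimated change with TGF-β1 in the same gene.

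Markers of the other liver cells were measured in the same cultures. The 10 measured hepatocyte markers were all above the median signal, with a mean log2 signal between 13.54 and 13.72 on every array. Of 15 markers of Kupffer cells and macrophages, 6 were at or above the median signal, and 8 fell at 4 h (limma), among them Fcer1g by 0.85 and Lyz2 by 0.82 on the log2 scale. The mean of this list was 7.96 to 8.07 in the control, 7.86 to 8.03 at 20 min, 7.71 to 7.76 at 2 h and 7.55 to 7.64 at 4 h. The Kupffer cell genes Clec4f and Timd4 were below the median signal, at 6.41 and 6.31 in the control. Of the other marker lists, 1 of 10 stellate cell markers (Dcn), 1 of 9 endothelial markers (Lyve1) and 1 hepatocyte marker (Tat) were called at 4 h, all lower. None of the 5 bile duct or 5 lymphocyte markers was called by limma, and 1 and 0 of them had an unadjusted p under 0.05. At 4 h such a p was found for 5 hepatocyte, 11 Kupffer cell, 3 stellate cell and 2 endothelial markers (limma). The median log2 fold change of the hepatocyte markers was -0.11. Among all probe sets 17.0% had such a p, and 3.02% were called lower. The part of the other liver cells in the lower values of Gadd45a, Mdm2, Trp53inp1, Btg2 and Sesn1 was not tested.

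Other p53 target genes were taken as a separate list, of which 32 of 36 were measured. The well-known targets Cdkn1a, Bax, Gdf15 and Fdxr were not among the tested probe sets with a single symbol. Trp53 itself, listed with its regulators, was also missing. For this list and those below, 1.57% of all probe sets were called higher and 3.02% lower at 4 h. At 4 h 3 of them fell, none rose and 29 did not pass, with a median log2 fold change of -0.01. With the replicate number as a random effect at its estimated correlation, only Rchy1 of the 3 passed (adjusted p = 0.0483), while Fas (adjusted p = 0.0658) and Plk3 (adjusted p = 0.227, all by limma) did not. Plk3, a stress-responsive polo-like kinase, fell by 0.76 (SE 0.08, adjusted p = 0.00159). The death receptor Fas fell by 0.46 (SE 0.11, adjusted p = 0.0316) and Rchy1, another ubiquitin ligase for p53, by 0.31 (SE 0.07, adjusted p = 0.0237, all by limma). Among 21 measured regulators of p53, 3 rose and none fell, with a median of 0.06. Ppp1r13l, an inhibitor of p53 of the ASPP family, rose by 0.80 (SE 0.15, adjusted p = 0.0142). The deubiquitinases Usp10 and Usp7 rose by 0.34 (SE 0.08, adjusted p = 0.0296) and 0.25 (SE 0.06, adjusted p = 0.0482, all by limma).

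In the list of GADD45 partners, the kinases of the p38 and JNK cascade with PCNA and CDK1, 15 of 18 genes were measured. Mapk14, which encodes p38 alpha, rose by 0.51 (SE 0.07, adjusted p = 0.0041 by limma). Map2k6, a kinase that activates p38, fell by 0.34 (SE 0.07, adjusted p = 0.0182 by limma), and the other 13 did not pass. The median was 0.09. Among 20 measured paralogs and partners of the 10 genes, Tob2, an antiproliferative relative of Btg2, rose by 0.36 (SE 0.07, adjusted p = 0.0121 by limma). Ccng2, the cyclin most like Ccng1, fell by 0.56 (SE 0.14, adjusted p = 0.0406 by limma), and the median of this list was 0.02.

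Direct SMAD target genes were measured beside them, and 9 of 24 rose at 4 h while none fell, with a median log2 fold change of 0.22. This list was written with earlier results of these data known, and the study reports Lox, Pmepa1 and Skil as changed in these hepatocytes. Its count is therefore not an independent measure beside the 10 genes. Pmepa1, a feedback inhibitor of TGF-β signaling, rose by 2.78 (SE 0.23, adjusted p = 0.000685) and Ccn2, a matricellular protein, by 1.96 (SE 0.21, adjusted p = 0.00143, both by limma). Thbs1, which encodes a matrix glycoprotein, rose by 1.48 (SE 0.19) and Lox, which encodes a collagen cross-linking enzyme, by 1.38 (SE 0.16). Of 28 immediate early genes, 5 fell and 1 rose, with a median of -0.06. Atf3 fell by 0.85 (SE 0.14), Zfp36 by 0.65 (SE 0.11) and Egr1 by 0.51 (SE 0.08), and Klf4 rose by 0.52 (SE 0.11). In the list of ATF4 and the integrated stress response, ATF4 being a known activator of Sesn2, 2 of 18 genes fell and none rose, with a median of -0.01. These were Ddit3 by 0.94 (SE 0.14, adjusted p = 0.00525) and Ppp1r15a by 0.39 (SE 0.07, adjusted p = 0.0124, both by limma). No gene of these 7 lists was called by limma at 2 h or 20 min. An unadjusted p under 0.05 was found for 9 of the SMAD target genes at 2 h and 2 at 20 min, and for 0 to 7 and 1 to 4 genes of each other list. The counts at 4 h rested on the replicate term and on single replicates. With the replicate number as a random effect the SMAD list had 7 calls, the paralogs none and the other 5 lists 1 each, and the Kupffer cell list 3. Fas and Plk3 (as given) lost their calls in that fit, and so did other genes named above. The adjusted p in that fit was 0.0633 for Skil, 0.299 for Usp7, 0.564 for Usp10, 0.0945 for Mapk14 and 0.226 for Tob2 (limma). It was 0.339 for Ccng2, 0.308 for Atf3, 0.0878 for Zfp36, 0.0625 for Klf4, 0.0602 for Ppp1r15a and 0.0577 for Lyz2 (limma). Dcn, Lyve1 and Tat were not followed singly in that fit. Without the replicate number as a block, the SMAD list had 2 calls and the other 6 lists none. Without replicate 1, 2 or 3 the SMAD list had 10, 6 and 4 calls, the immediate early list 10, 0 and 0 and the other p53 targets 2, 1 and 0. The regulators of p53, the GADD45 partners and the paralogs each had 1 call without replicate 1 and none without replicate 2 or 3, and the ATF4 list had 3, 0 and 0. For the Kupffer cell list the call count was 1 without the block and 9, 2 and 1 without replicates 1, 2 and 3.

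**Figure D4:**
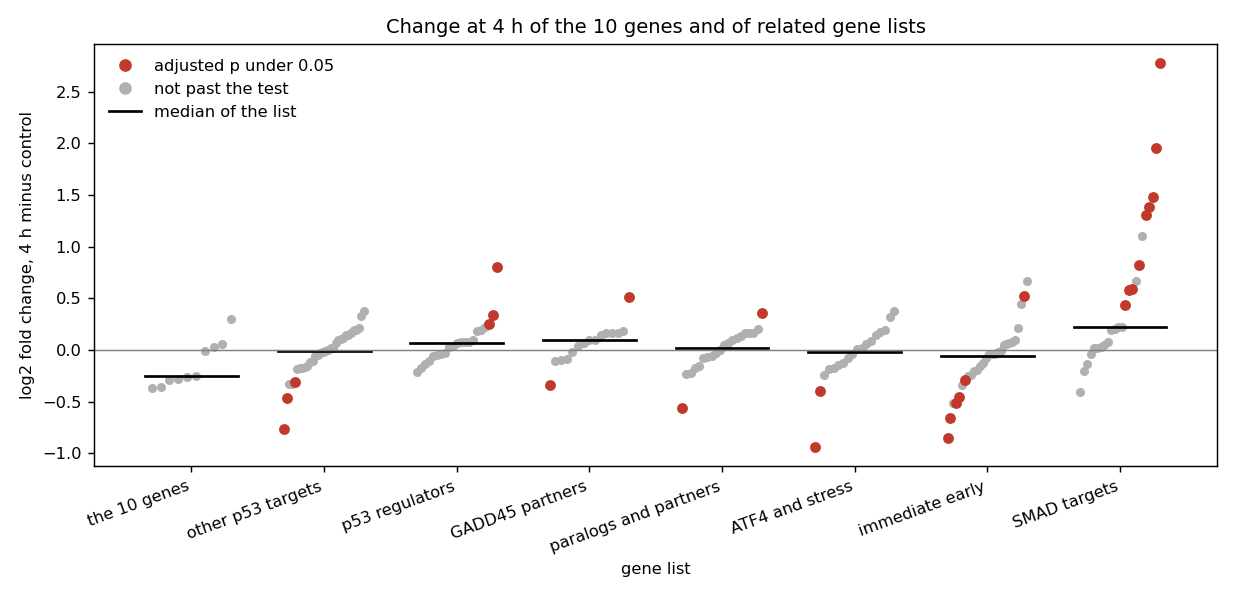
Log2 fold change at 4 h against the control (y axis) of single genes, shown as points, in the 10 genes and 7 related lists (x axis), with a black line at each median. Red points passed limma at an adjusted p under 0.05. The 10 genes have no red point and a median of -0.25, while 9 of the SMAD target genes are red and lie above 0. The genes and lists were chosen with earlier results of these data known.

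For each of the 10 genes, the probe sets with the most similar pattern over the 12 arrays were searched among 10894 at or above the median signal, after the mean of each replicate number was subtracted. For Gadd45b these were Bhlhe40 (Pearson's r of 0.94), Id1 (0.92) and Id3 (0.92), of which Id1 and Id3 encode inhibitors of DNA-binding proteins. Their log2 fold changes at 4 h were 0.20, 0.22 and 0.03, and like Gadd45b they did not pass. For Gadd45a they were Apoa5 (0.95), Nfkbia (0.93) and Maff (0.93), and for Gadd45g Rxrg (0.94), Efna1 (0.92) and Slc25a5 (0.92). None of these 6 passed at 4 h.

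Trp53inp1 was most like Ttc23 (0.96), Abtb1 (0.96) and 4833439L19Rik (0.95), and Ttc23 was the only one of them to pass at 4 h, with a log2 fold change of -0.45 (SE 0.09, adjusted p = 0.0214 by limma). Btg2 was most like Smoc1 (0.94), Zdhhc9 (0.93) and Phf21a (0.93), of which Phf21a passed at 4 h with -0.53 (SE 0.10, adjusted p = 0.0162 by limma). Mdm2 was most like Lgals3 (0.94), Dcxr (0.93) and Nfkbib (0.93). Phlda3 was most like Uchl3 (0.97), Mcm4 (0.96) and Adgrl2 (0.96), whose log2 fold changes at 4 h were 0.18, 0.45 and 0.21 and did not pass.

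Ccng1 was most like Qrsl1 (0.93), Rfc4 (0.92) and Ube2o (0.92), Sesn1 like Setdb2 (0.91), Slc35a4 (0.89) and Zfp809 (0.89), and Sesn2 like Foxj2 (0.94), Ndc1 (0.92) and Phf3 (0.92). None of these 9 passed at 4 h (limma). Among the 10 genes themselves, Ccng1 and Phlda3 were the most alike (Pearson's r of 0.91), followed by Gadd45b with Gadd45g. Ccng1 with Sesn2 (0.76) and Phlda3 with Sesn2 (0.74) were also alike, and these 3 genes shared the opposite direction in replicate 1 at 4 h. Gadd45b and Sesn1 were the least alike (-0.66). These are descriptions over 12 arrays that share cultures and times.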

How the data were processed

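RNA from the 12 cultures was measured on Mouse Gene 1.0 ST arrays (Affymetrix). The deposited values are log2 signals that the authors made with RMA in Affymetrix Power Tools, which corrects background, normalizes by quantiles and summarizes probes, so that the arrays were already on a common scale (values 3.84 to 15.2, array medians 6.82 to 6.93). Tool versions are not given in the sources used here. The study's own analysis used another summary of the probes and a batch correction, which were not used here. A further time point named in the study's methods was not analysed here, and the 20 min group follows the labels.

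Of 35556 probe sets, 21789 with 1 gene symbol were tested, 1621 with several symbols and 12146 without a listed symbol were left out, and none was filtered by signal. The number of arrays limits the precision. No pair of arrays held identical values. limma 3.58.1 in R 4.3.3 was fitted with time and replicate number as terms (6 residual degrees of freedom), as in the study's methods, and p-values were adjusted by Benjamini-Hochberg over all probe sets. The statistical code was tested on simulated data. The replicate number was kept as a block because the study's model had a replicate factor. The study's methods also describe a strong batch effect in these arrays, but do not say that the replicate numbers were the batches. Deviations of same-numbered arrays from the group means correlated at 0.555 to 0.881 in all 18 pairs. The range was 0.773 to 0.881 within number 1, 0.555 to 0.794 within number 2 and 0.644 to 0.707 within number 3. Between numbers 2 and 3 it was 0.539 to 0.722, and between number 1 and the others -0.812 to -0.656. The ranges within numbers 2 and 3 overlapped with that between them, so the pairing of these arrays by number rests on the labels. In all, 27 alternatives were computed. The 10 genes and the gene lists were chosen with earlier results of these data known. The 10 genes were always named, with up to 4 called genes per list by size of the 4 h change and the 3 most similar genes for each member. Promoter sequences and gene names are from RefSeq (GRCm38.p6) and the array annotation, with 21698 probe sets matched by gene identifier. No genome build is named for the array values, so no gene coordinates are given beyond the printed windows.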

Additional observations from a re-analysis of the deposited data

How the results depend on the processing

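The count of the 10 genes called was 0 in all comparisons and was recalculated under 27 alternatives, which left it at 0 in 153 cases and changed it in 8. At 4 h it was 1 among probe sets at or above the median signal, 2 with a trended and robust prior, 3 with array weights and 2 at an adjusted p under 0.10, and 0 to 1 when single arrays or replicates were left out (1 without replicate 1, which was Phlda3, and 1 without the 20 min array of replicate 1, which was Trp53inp1). In the time course it was 1 with a trended and robust prior (Btg2), and 0 to 1 with replicates left out (1 without replicate 1, again Phlda3). Without the replicate block it stayed 0 at 4 h, while 31 in place of 1000 probe sets were called. With the replicate block as a random effect (consensus correlation 0.393) 225 probe sets were called. Over all probe sets 985, 101 and 32 were called without replicates 1, 2 and 3. Sesn2 changed sign with array weights (0.12 at 4 h, 0.0275 at 20 min) and with quantile normalization (0.0043 at 20 min). Leaving out arrays or replicates also turned the sign of small estimates. At 4 h the ranges were -0.17 to 0.37 for Gadd45b, -0.48 to 0.0903 for Gadd45g and -0.24 to 0.29 for Sesn2. The 4 h estimate of Phlda3 kept its sign but ran from 0.0624 (without replicate 2) to 0.67 (without replicate 1). At 2 h they were -0.24 to 0.11 for Gadd45a, -0.0242 to 0.40 for Gadd45b, -0.27 to 0.38 for Gadd45g, -0.0163 to 0.11 for Ccng1, -0.31 to 0.0834 for Sesn2 and -0.10 to 0.39 for Phlda3. At 20 min they were -0.14 to 0.0031 for Mdm2, -0.12 to 0.0253 for Btg2, -0.0217 to 0.0898 for Ccng1, -0.26 to 0.0203 for Sesn1 and -0.22 to 0.18 for Sesn2. The cause was not tested. The estimates of Mdm2, Trp53inp1, Btg2 and Sesn1 at 2 h and 4 h kept their sign under all 27 alternatives. Those of Gadd45a, Ccng1 and Phlda3 did so at 4 h, and those of the GADD45 family, Trp53inp1 and Phlda3 at 20 min. Several alternatives change only the spread, the threshold or the set of probe sets. They return the same estimate, so they could not turn a sign.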
